A study of Mus musculus with 4 samples.

Results

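The TNF superfamily ligands and receptors were described here as 37 genes, 16 ligands and 21 receptors, of 24135 genes listed in 4 RNA-seq libraries of mouse macrophages. The members were taken by name from a list. Each deposited RefSeq entry was given its gene symbol, FPKM (fragments per kilobase of transcript, scaled to the mapped reads of the library) was added up over a symbol's entries, and an FPKM of 1 was the level at which a member counted as reached. Of the 37 members, 27 reached an FPKM of 1 in at least 1 library, 21 reached it in all 4, and 10 stayed below it throughout.

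Macrophages grown from bone marrow of the C57BL/6 strain were either Batf2+/+ (WT) or Batf2-/- (KO). Batf2 encodes a basic leucine zipper transcription factor. Marrow cells had been cultured for 6 days with GM-CSF at 10 ng/ml, and the cells that adhered were used. All 4 libraries came from cells that received IFN-γ at 10 ng/ml for 4 h, followed by LPS at 100 ng/ml for 0 h or 3 h, so that 0 h means IFN-γ alone and no library shows the cells without IFN-γ. Each genotype had 1 library at each time. No library shows cells kept for 3 h more without LPS, so LPS cannot be told apart from the added time after IFN-γ. Below, a response to LPS means the difference between 3 h and 0 h. With 1 library per group no difference has a replicate check, and no test was made. How the allele was built, and how many animals stood behind each library, is not given in the sources used here.

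A fixed rule of size was used in place of a test. A gene passed when log2(FPKM + 1) differed by at least 1 between 2 libraries, its FPKM was at least 1 in 1 of them, and the deposited lower and upper limits of the 2 values did not overlap. These limits cover the counting and assignment of reads within a library and hold no spread between cultures. "Rose" and "fell" are used below only for genes past this rule, and intervals are drawn from the deposited limits.

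Batf2 itself had an FPKM of 2.63 in WT and 0.26 in KO at 0 h, and 234 in WT and 10.1 in KO at 3 h. The libraries held an estimated 20500000 to 31000000 reads and 9557 to 10758 genes at an FPKM of 1 or more. All 9 macrophage markers reached that level in all 4 libraries, as did all 9 measured neutrophil markers. Of the 9 dendritic cell markers 6 did so in each library, with Itgax highest at 457 to 564. No marker of B cells or NK cells reached that level. Of the T-cell markers, Cd4 reached it in all 4 libraries and Lck at 3 h, while Cd3d, Cd3e and Cd3g had at most 0.42. The 9 measured neutrophil markers summed to an FPKM of 3595 in WT and 8776 in KO at 0 h, and to 5303 and 5100 at 3 h. The 5 stromal markers summed to 32.6 in WT and 72.9 in KO at 0 h.

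Ligands of this superfamily are mostly membrane proteins that act as trimers, on the cell or after cleavage from it, and their receptors carry cysteine-rich repeats outside the cell. Some receptors hold a death domain and can start apoptosis or necroptosis, and others bind TRAF adaptors and activate NF-κB and MAP kinases. Macrophages are a main source of TNF after LPS is sensed by Toll-like receptor 4, and CD40 on them receives help from T cells.

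At 0 h, receptors made up more of the superfamily's RNA than ligands. The 16 ligands summed to an FPKM of 149.7 in WT and 141.3 in KO, and the 21 receptors to 320.1 and 325.9. Tnfsf12, which encodes the cytokine TWEAK, was the ligand with the highest level, at 41.5% of the ligand sum in each genotype, and Tnf followed. Among the receptors Tnfrsf1b, the receptor TNFR2, led with 35.3% of the receptor sum in WT and 34.9% in KO.

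At 3 h this order was turned. The ligands summed to 3271 in WT and 3700 in KO, and the receptors to 1083 and 1123. Tnf alone was 76.2% of the ligand sum in WT and 76.1% in KO, and Tnfsf15 was 18.8% and 19.9%. Cd40 was 63.7% and 63.8% of the receptor sum. A lower or higher FPKM in such a bulk culture cannot be told apart from fewer or more cells of a type that expresses the gene.

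**Figure D1:**
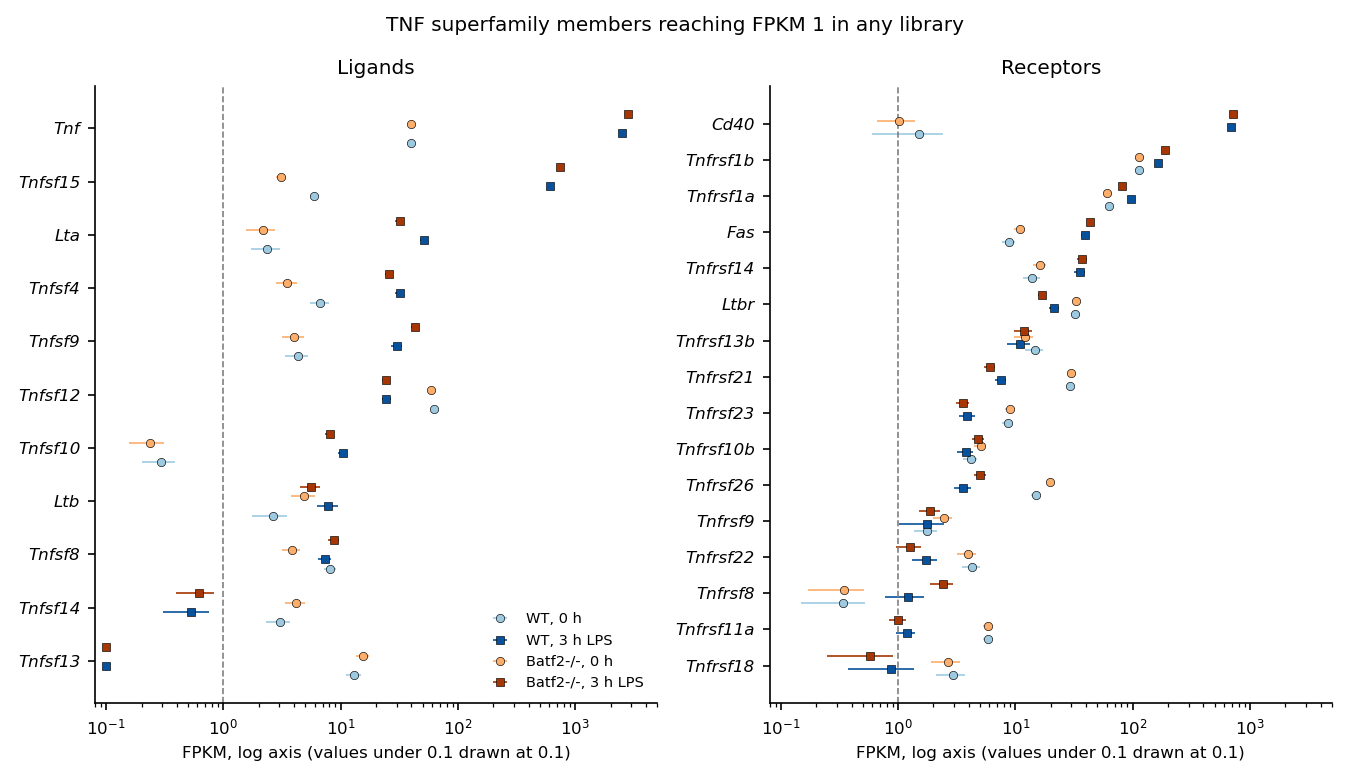
FPKM (log axis) of the 27 members that reached 1 in any library, ligands on the left and receptors on the right, ordered by the level in WT at 3 h; bars are the intervals from the deposited limits and the dashed line marks an FPKM of 1. Tnf, Tnfsf15 and Cd40 stand far to the right at 3 h in both genotypes, and Tnfsf13, listed at 0 at 3 h, is drawn at 0.1.

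The 27 members differed in how stably they were detected. An FPKM of 1 was reached by 25 members in each genotype at 0 h, and at 3 h by 24 in WT and 23 in KO. The members nearest the level were Cd40 with 1.02 in KO at 0 h, just inside, and Tnfrsf11a with 0.995 in KO at 3 h, just outside. The 10 members below the level in all libraries were the ligands Tnfsf18, Cd70, Fasl, Tnfsf11 and Tnfsf13b and the receptors Cd27, Tnfrsf4, Tnfrsf12a, Tnfrsf13c and Tnfrsf25. Tnfsf13b, the B-cell survival factor BAFF, came closest among the ligands in KO at 3 h, with 0.79. Tnfrsf12a, the receptor of TWEAK, was listed at 0 in all 4 libraries. Its locus, chr17:23675445-23677449, overlaps the end of another gene, Hcfc1r1, which stops at 23675524, so most of the locus lies outside the overlap. Whether reads were counted by strand is not given in the sources used here, and the part of the overlap in the 0 was not tested.

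Set side by side, ligands and their receptors were often not detected together. Tnfsf15 (TL1A) reached 735 in KO at 3 h, while its receptor gene Tnfrsf25 had at most 0.14 in any library. Tnfsf4 (OX40 ligand) reached 31.8, and its receptor gene Tnfrsf4 had at most 0.77. Conversely Cd40 reached 717 while Cd40lg, a superfamily ligand outside the 37, had at most 0.045, and Fas reached 43.2 while Fasl had at most 0.02.

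Pairs with both sides above an FPKM of 1 in the same library included Tnf with Tnfrsf1a and Tnfrsf1b, Ltb with Ltbr, and Tnfsf9 with Tnfrsf9, in all 4 libraries. Tnfsf10 (TRAIL) with Tnfrsf10b and Tnfsf8 (CD30 ligand) with Tnfrsf8 (CD30) were both above it at 3 h only. Tnfsf14 (LIGHT) with Tnfrsf14 (HVEM) were both above it at 0 h only.

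Between 0 h and 3 h of LPS, the ligands split into a larger group that rose and a smaller one that fell. Of 27 members measured, 10 rose and 7 fell in WT, against 7.56% and 23.2% of all 10845 genes measured, and 11 rose and 9 fell in KO, against 7.85% and 28% of 10963 genes. Among the 11 measured ligands 7 rose and 3 fell in each genotype. The ligands' median difference was 2.10 in WT and 2.57 in KO on the log2(FPKM + 1) scale, that of the 16 measured receptors -0.25 and -0.16, and that of all genes -0.54 and -0.64. The 9 members that rose in both genotypes were Tnf, Lta, Tnfsf15, Tnfsf4, Tnfsf9, Tnfsf10, Cd40, Fas and Tnfrsf14, and the 7 that fell in both were Tnfsf12, Tnfsf13, Tnfsf14, Tnfrsf11a, Tnfrsf18, Tnfrsf21 and Tnfrsf26. The 9 are 90% of those that rose in WT and 81.8% of those in KO. The same shares over all genes were not computed, so these are not read as a trait of the members. These comparisons in WT and KO share no library.

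The fall of the median gene bears on these counts. When the libraries were rescaled by the median ratio over 9066 genes, 12 members rose and 5 fell in WT, against 11.9% and 9.9% of all genes, and 13 rose and 5 fell in KO, against 13% and 10.2%. Tnfrsf1a and Tnfrsf1b joined those that rose in both genotypes, and Tnfsf12 and Tnfrsf18 no longer passed in either. The receptors' median changed sign, to 0.22 in WT and 0.33 in KO. That of the ligands was 2.59 and 3.12, and that of all genes -0.07 and -0.08. With a pseudocount of 5, which weighs down low levels, Tnfsf14, Tnfrsf18 and Tnfrsf11a no longer passed in either genotype, nor did Ltb in WT or Tnfsf8, Tnfrsf8, Tnfrsf14, Tnfrsf22 and Tnfrsf23 in KO.

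**Figure D2:**
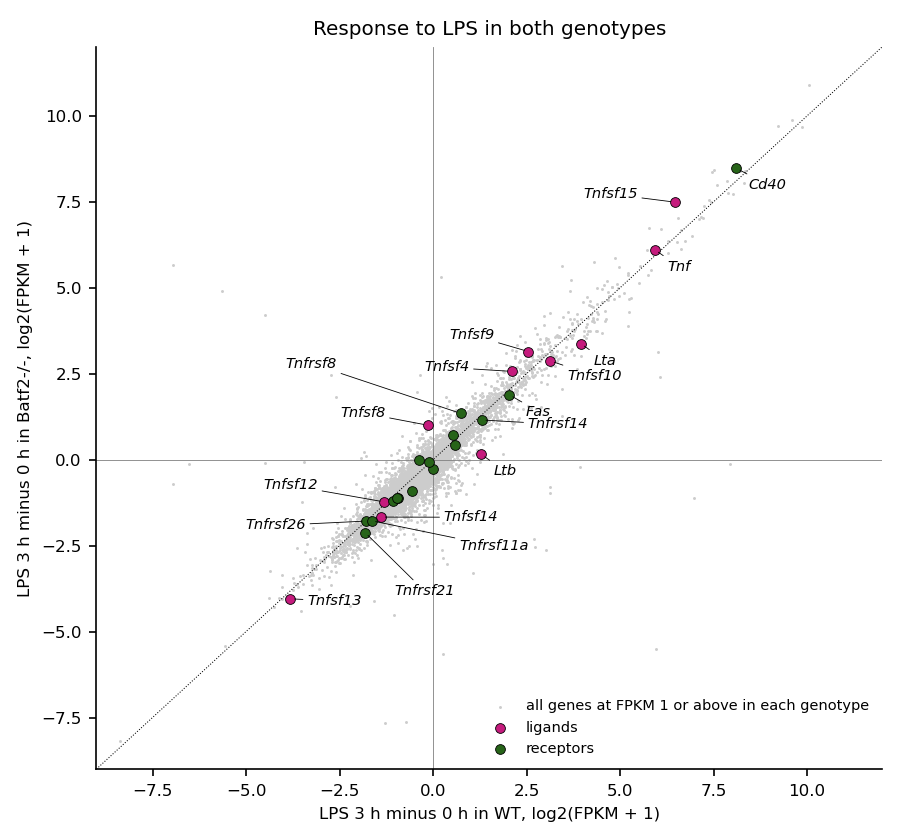
Difference between 3 h and 0 h of LPS on the log2(FPKM + 1) scale in WT (horizontal) and KO (vertical); grey points are all genes measured in both genotypes, coloured points the 27 members, and the dotted line marks equal differences. Cd40, Tnfsf15 and Tnf lie at the upper end of the grey cloud, while Tnfsf8 and Tnfsf15 lie above the line and Ltb below it.

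Tnf encodes the founding cytokine of the family, which acts on TNFR1 and TNFR2. Its FPKM was 39.9 in WT and 40.03 in KO at 0 h, and 2492 in WT and 2815 in KO at 3 h. Both 3 h libraries were thus far above both 0 h libraries. The rise was 62.5-fold in WT (interval 58.6 to 66.6) and 70.3-fold in KO (interval 66.3 to 74.6). The gene lies on chromosome 17 at chr17:35199367-35202007 (GRCm38, reverse strand). The 250 bases before its start, chr17:35202008-35202257 on the reverse strand in RefSeq's promoters of GRCm38.p6, are shown because Tnf was the most abundant member at 3 h, and they hold none of the 3 motifs searched (κB, AP-1 and interferon response), so that no base is in capitals.
Tnf: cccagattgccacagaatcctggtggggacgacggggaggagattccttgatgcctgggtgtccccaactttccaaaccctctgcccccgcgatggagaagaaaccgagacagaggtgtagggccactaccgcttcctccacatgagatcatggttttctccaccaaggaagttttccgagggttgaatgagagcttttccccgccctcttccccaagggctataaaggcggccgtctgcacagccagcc

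Tnf RNA is known to be bound and destabilised by proteins that recognise AU-rich stretches of its 3′ untranslated part. The nonamer TTATTTATT, the DNA spelling of such a site, was searched in the annotated 3′ untranslated part of 1 coding transcript per gene (GENCODE vM21), a search added after the values were seen. It occurred in 5 of the 37 members (13.5%), namely Tnf, Lta, Tnfsf13b, Tnfrsf10b and Tnfrsf22, and in 7.12% of 20742 genes. The median length searched was 1019 bases in members and 847 in all genes, and the shares were not adjusted for length. Tnf held 5 copies, overlapping ones counted separately, and Lta 1. The first copy in each, in capitals with 10 bases on either side, is shown because these are the only carriers among the members that rose.
Tnf: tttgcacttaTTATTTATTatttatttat
Lta: aaaagttaagTTATTTATTtatagagaat

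Tnfsf15 encodes TL1A, a ligand that costimulates T cells through the receptor DR3. It had an FPKM of 5.96 in WT and 3.10 in KO at 0 h, and 614 in WT and 735 in KO at 3 h. KO had the lower value at 0 h and the higher at 3 h. The rise was 103-fold in WT (interval 94.7 to 112) and 237-fold in KO (interval 213.8 to 262.9), ranking 35 and 21 from the highest difference of all genes measured. Its promoter, chr4:63745060-63745309 on the reverse strand (GRCm38.p6), also held none of the 3 motifs. The deposited entry of the gene runs to 63745113, so the last bases printed lie inside that entry.
Tnfsf15: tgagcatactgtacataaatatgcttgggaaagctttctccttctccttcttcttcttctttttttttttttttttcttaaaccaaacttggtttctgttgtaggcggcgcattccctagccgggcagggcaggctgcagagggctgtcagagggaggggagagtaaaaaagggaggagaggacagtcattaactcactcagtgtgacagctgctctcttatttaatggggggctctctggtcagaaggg

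Lta, lymphotoxin alpha, had 2.37 in WT and 2.16 in KO at 0 h, and 51.2 in WT and 31.7 in KO at 3 h. It rose 21.6-fold in WT (interval 16.2 to 28.9) and 14.6-fold in KO (interval 10.997 to 19.5). The 0 h values were close and the 3 h values apart.

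Tnfsf9, the ligand of the costimulatory receptor encoded by Tnfrsf9, had 4.33 and 3.99 at 0 h and 30.1 and 43.1 at 3 h, in WT and KO. Tnfsf4, OX40 ligand, had 6.65 and 3.51 at 0 h and 31.8 and 25.7 at 3 h. Tnfsf10, the death ligand TRAIL, had 0.29 and 0.23 at 0 h and 10.4 and 8.02 at 3 h. All 3 rose in both genotypes, and no 0 h value overlapped a 3 h value. Tnfsf10 had the greatest fold of these, 35.4 in WT (interval 25.5 to 49.1) and 34.2 in KO (interval 24.3 to 48.2), from a 0 h level below 1.

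Ltb and Tnfsf8 passed the rule in 1 genotype each. Ltb, lymphotoxin beta, which anchors lymphotoxin alpha at the membrane, went from 2.62 to 7.85 between 0 h and 3 h in WT, and had 4.90 and 5.55 in KO. It rose 2.99-fold in WT (interval 2.02 to 4.43), while the KO values had a ratio of 1.13 (interval 0.84 to 1.52). Tnfsf8, the CD30 ligand, had 8.17 and then 7.30 in WT, and 3.85 and then 8.70 in KO. In KO it rose 2.26-fold (interval 1.83 to 2.79), at a difference of 1.001 that sits on the limit of the rule, and in WT the ratio was 0.89 (interval 0.75 to 1.07).
The promoter of Ltb, chr17:35194257-35194506 on the forward strand (GRCm38.p6), is shown because among the ligands that rose and have a promoter in the table it alone held a match, in capitals, to the κB consensus.
Ltb: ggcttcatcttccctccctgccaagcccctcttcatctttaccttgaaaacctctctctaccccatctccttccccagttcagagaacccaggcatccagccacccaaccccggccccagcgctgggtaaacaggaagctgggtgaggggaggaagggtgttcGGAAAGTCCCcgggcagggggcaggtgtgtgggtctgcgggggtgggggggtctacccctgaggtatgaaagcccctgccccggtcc

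Tnfsf12, Tnfsf13 and Tnfsf14 fell in both genotypes. Tnfsf12 had 62.1 in WT and 58.7 in KO at 0 h, and 24.5 and 24.4 at 3 h, 2.53-fold lower in WT (interval 2.28 to 2.81) and 2.40-fold lower in KO (interval 2.19 to 2.62). Tnfsf14, or LIGHT, had 3.01 and 4.13 at 0 h and 0.53 and 0.61 at 3 h. At 3 h these levels rest on an estimated 20 reads in WT and 35 in KO.

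Tnfsf13 encodes APRIL, which supports B cells and plasma cells. Its FPKM was 13.1 in WT and 15.5 in KO at 0 h and was listed at 0 in both 3 h libraries. Tnfsf13 and Tnfsf12 are neighbours, and the files also list read-through transcripts that join them, at 21.6 in WT and 14.3 in KO at 0 h and at 10.97 and 11.2 at 3 h. Of the 2 entries of Tnfsf13, 1 held all of its FPKM in WT at 0 h and the other all of it in KO at 0 h, so the 0 at 3 h is not read as loss of all its RNA. With the read-through entries added, an alternative chosen after seeing the data, the sum was 34.6 and 29.8 at 0 h and 10.97 and 11.2 at 3 h. On the deposited scale the fall still passed, at -1.57 in WT and -1.33 in KO. This sum was not rescaled, so whether its fall passes after rescaling was not tested. When the entry with the highest mean was used alone, Tnfsf13 was listed at 0 in both WT libraries and its fall in WT was lost, and it passed as higher in KO at 0 h and in the difference between responses (-4.05).

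Among receptors that signal through TRAF adaptors, Cd40 moved most. Cd40 had an FPKM of 1.51 in WT and 1.02 in KO at 0 h, and 690 in WT and 717 in KO at 3 h. The 0 h values rest on an estimated 66 and 19 reads, against 31000 and 49000 at 3 h. The fold was 458 in WT (interval 251 to 837) and 703 in KO (interval 494 to 1001), rank 11 and rank 5 of all genes measured. At 3 h the sum came from 2 of the 5 RefSeq entries of the gene, with 397 and 292 in WT and 407 and 310 in KO. Both were at 0 in KO at 0 h, where all of the FPKM was in another entry, itself at 0 at 3 h. The fold in KO therefore compares different entries. In WT at 0 h, 0.64 lay in the entry with 397 at 3 h, and 0.41 and 0.45 lay in others.

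Tnfrsf14 encodes HVEM, which binds LIGHT and lymphotoxin alpha. It had 13.8 in WT and 16.2 in KO at 0 h and 35.6 and 37.2 at 3 h, a rise of 2.57-fold (interval 2.12 to 3.12) and 2.30-fold (interval 1.95 to 2.71). Its promoter, chr4:154928078-154928327 on the reverse strand (GRCm38.p6), is shown because it holds a match, in capitals, to the interferon response motif, which is GAAA followed by NN and a further GAAA, on the opposite strand.
Tnfrsf14: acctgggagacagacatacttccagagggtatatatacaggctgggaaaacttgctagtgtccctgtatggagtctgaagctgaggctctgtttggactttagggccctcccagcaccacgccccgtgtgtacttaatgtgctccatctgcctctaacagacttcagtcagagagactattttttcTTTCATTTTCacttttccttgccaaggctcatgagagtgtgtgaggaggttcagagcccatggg

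Tnfrsf1b, or TNFR2, was the most abundant receptor at 0 h, with 113 in WT and 114 in KO, and had 165 and 189 at 3 h. Its differences of 0.54 and 0.72 did not pass as deposited, and passed after rescaling at 1.07 and 1.36. Tnfrsf8, or CD30, had 0.34 in both genotypes at 0 h and 1.22 in WT and 2.41 in KO at 3 h. It rose in KO, at 1.35, and its difference of 0.74 in WT did not pass.

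Other receptors of this kind fell or stayed under the rule. Tnfrsf11a, the receptor RANK that drives osteoclast formation, had 5.83 and 5.84 at 0 h and 1.18 and 0.995 at 3 h, in WT and KO, and fell 4.93-fold (interval 4.00 to 6.07) and 5.87-fold (interval 4.87 to 7.07). Tnfrsf18, or GITR, had 2.91 and 2.64 at 0 h and 0.87 and 0.58 at 3 h. The lymphotoxin beta receptor Ltbr had 32.3 and 32.5 at 0 h and 21.4 and 16.9 at 3 h, with differences of -0.57 and -0.91 that did not pass. Tnfrsf9 (differences of 0.00 and -0.26) and Tnfrsf13b (-0.39 and -0.02) did not pass either. Of the entries of Tnfrsf9, the main one went from 1.74 to 0.69 in WT, while another had 1.06 in WT at 3 h alone. After rescaling Tnfrsf13b stood at 0.11 and 0.57 and Tnfrsf9 in KO at 0.18, of the other sign, and Ltbr at -0.05 and -0.29.

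The receptors with a death domain did not move together. Fas had 8.81 in WT and 10.95 in KO at 0 h and 39.3 and 43.2 at 3 h, and rose 4.46-fold (interval 3.83 to 5.19) and 3.94-fold (interval 3.48 to 4.47). Tnfrsf21, the death receptor DR6, went the other way, from 29.0 and 29.6 to 7.51 and 6.04, and fell 3.87-fold (interval 3.43 to 4.36) and 4.90-fold (interval 4.37 to 5.49). Tnfrsf1a, or TNFR1, had 63.1 and 60.4 at 0 h and 95.9 and 81.1 at 3 h, at 0.60 and 0.42, which passed only after rescaling (1.13 and 1.05). Tnfrsf10b, the mouse receptor for TRAIL, was between 3.78 and 5.06 in the 4 libraries.

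The mouse decoy receptors for TRAIL, Tnfrsf22 and Tnfrsf23, and their neighbour Tnfrsf26 were lower at 3 h in both genotypes. Tnfrsf26 had 14.9 in WT and 19.7 in KO at 0 h and 3.60 and 5.005 at 3 h, and fell by 1.79 in each. Tnfrsf22 had 4.25 and 3.90 at 0 h and 1.72 and 1.26 at 3 h, and Tnfrsf23 had 8.62 and 8.99 and then 3.88 and 3.58. Their differences were -0.95 and -0.98 in WT, just under the rule, and -1.12 and -1.13 in KO, just past it. After rescaling neither passed in either genotype.

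Of the 37 genes, 22 lie in 9 runs in which a member is no more than 100 kb from the next, and the members of a run often differed in their response. On chromosome 17, Ltb, Tnf and Lta lie within 3.06 kb and 1.16 kb of each other, and their differences in WT were 1.29, 5.93 and 3.95. In KO they were 0.15, 6.10 and 3.37. Further along that chromosome, Tnfsf9 rose by 2.54 and 3.14 while Tnfsf14 fell by 1.39 and 1.67, with Cd70, below an FPKM of 1, between them. This was the 1 run, named after the values were seen, with members past the rule in both directions. Tnfsf15 and Tnfsf8 lie 87.7 kb apart on chromosome 4 at differences of 6.46 and -0.14 in WT. By contrast, the 3 receptors Tnfrsf26, Tnfrsf22 and Tnfrsf23 on chromosome 7 were all lower, from -0.95 to -1.79.

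**Figure D3:**
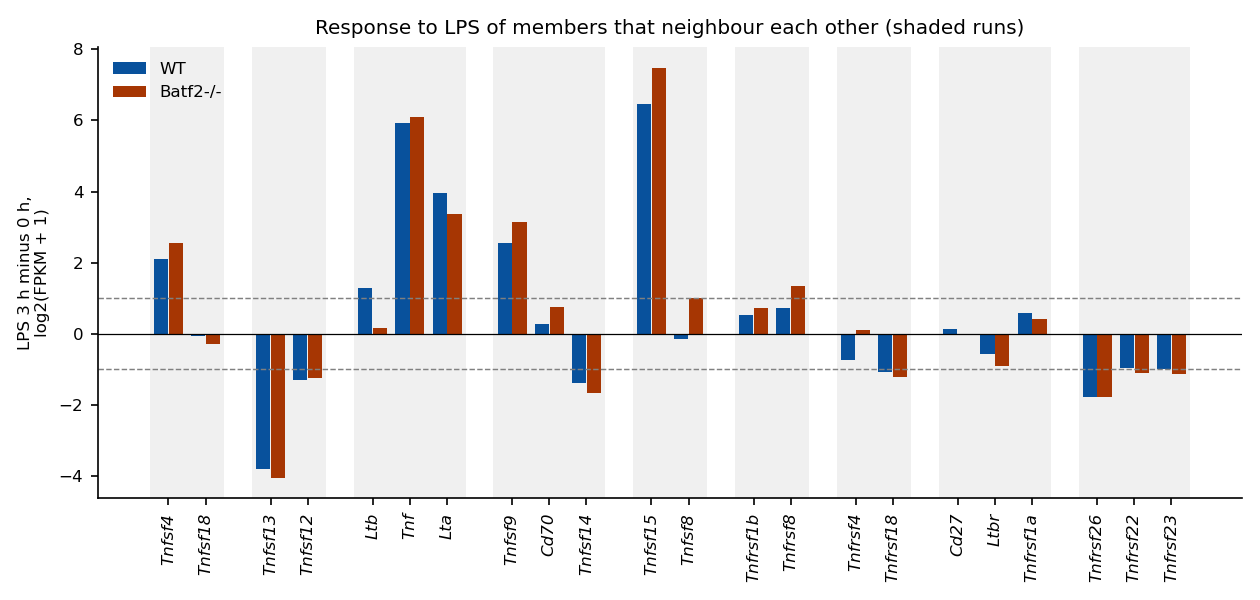
Difference between 3 h and 0 h of LPS on the log2(FPKM + 1) scale for the 22 members in 9 runs of neighbours (grey bands), blue for WT and brown for KO, with dashed lines at 1 and -1. The runs Ltb, Tnf, Lta and Tnfrsf26, Tnfrsf22, Tnfrsf23 each point 1 way, and the run Tnfsf9, Cd70, Tnfsf14 crosses 0.

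The comparison of KO with WT asks which members differ without Batf2. No member passed the rule at 0 h, of 25 measured, against 1.71% of 10846 genes, and none at 3 h, of 24, against 1.46% of 9808 genes. No test was run on these counts, since each group had 1 library. Short of the rule, the deposited limits did not overlap for 5 members at 0 h, where they did not for 19.1% of all genes, and for 12 at 3 h, against 25.5%.

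At 0 h the 3 members with the lowest differences were all ligands. Tnfsf8 had 3.85 in KO and 8.17 in WT, 2.12-fold lower (interval 1.71 to 2.63), at a log2(FPKM + 1) difference of -0.92. Tnfsf15, with 3.10 against 5.96, was 1.92-fold lower (interval 1.69 to 2.20), and Tnfsf4, with 3.51 against 6.65, 1.89-fold lower (interval 1.44 to 2.49). They stood at ranks 74, 117 and 119 from the lowest of 10846 genes. In the other direction Ltb had 4.90 against 2.62, a difference of 0.70, and Tnfrsf26 had 19.7 against 14.9, a difference of 0.39.

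Markers of other cells also differed between the 0 h libraries. All 9 neutrophil markers and all 5 stromal markers were higher in KO, with the sums given above, and 4 and 2 of them passed the rule. The 6 mast cell and basophil markers summed to 5.83 in WT and 11.5 in KO, 5 of them higher in KO, and Hdc passed. Of the 9 dendritic cell markers 4 were higher and 5 lower in KO, and 1 passed the rule, Cd209a, at 6.46 and 2.13. They summed to 623 in WT and 596 in KO, of which Itgax alone was 564 and 556. At 3 h the dendritic cell markers summed to 503 in WT and 550 in KO, of which Itgax was 457 and 498. Of them 3 were higher and 6 lower in KO, with Clec9a past the rule at 9.68 and 2.16. The stromal markers then summed to 33.4 and 52.8, and the mast cell and basophil markers to 15.2 and 23.3. Gata2, of the mast cell and basophil markers, passed as higher in KO at 3 h. So did Mmp8 of the neutrophil markers, of which 3 were higher and 6 lower in KO. Of the 9 macrophage markers, 7 were higher and 2 lower in KO at each time. None of these passed the rule at 0 h, and Cd14 passed as higher in KO at 3 h. The part of these markers in the differences of members at either time was not tested. No B or NK cell marker reached 1 in any library, as given above.

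At 3 h the member with the lowest difference was Lta, 1.62-fold lower in KO (interval 1.45 to 1.803), at -0.68. Tnfsf10 (8.02 against 10.4), Tnfsf4 (25.7 against 31.8), Ltbr (16.9 against 21.4), Tnfrsf1a (81.1 against 95.9) and Tnfrsf21 (6.04 against 7.51) were also lower in KO with limits that did not overlap. Higher in KO in the same way were Tnfrsf8 at 0.62, Tnfsf9 at 0.51 with 43.1 against 30.1, Tnfrsf26 at 0.39, Tnfsf15 at 0.26, Tnfrsf1b at 0.20 and Tnf at 0.18. The genes of the receptors TNFR1 and TNFR2 thus stood on opposite sides of 0, at -0.24 and 0.20 as deposited and at -0.16 and 0.28 after rescaling.

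**Figure D4:**
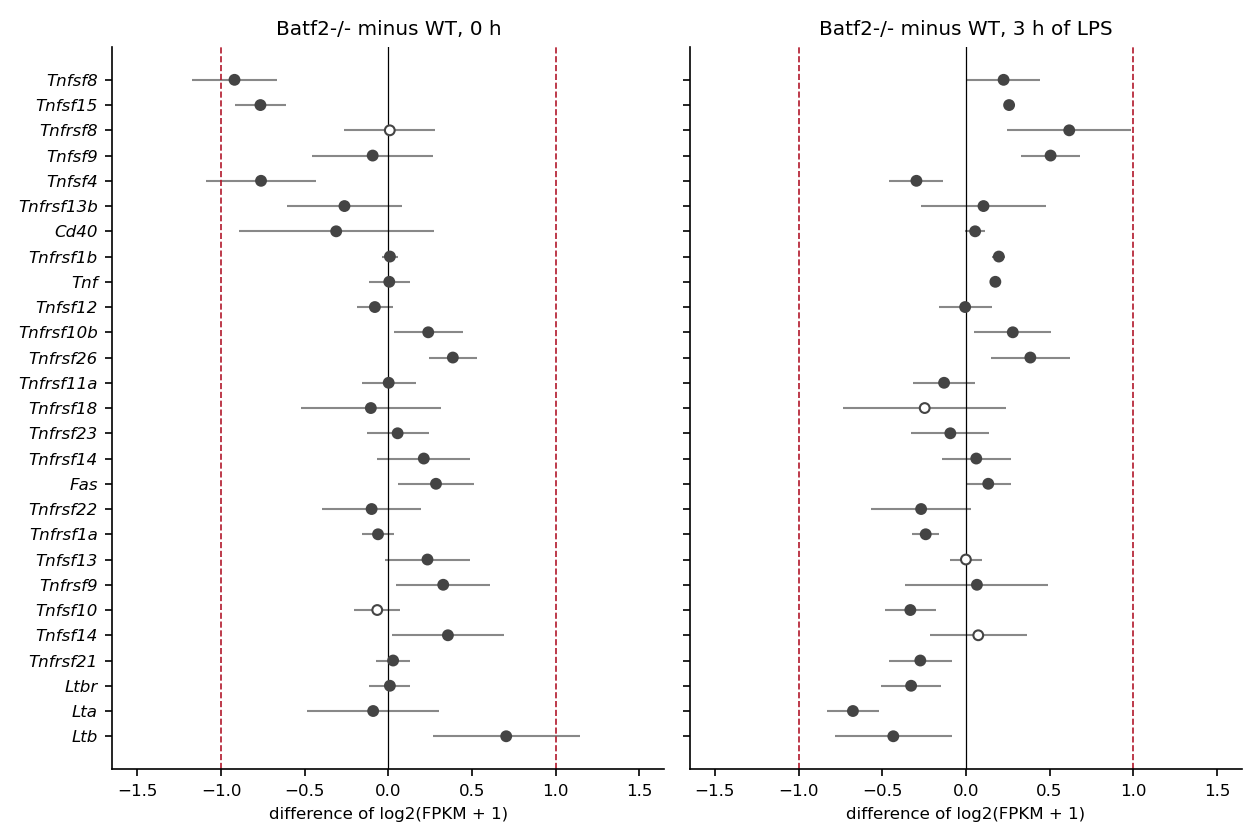
Difference of log2(FPKM + 1) between KO and WT at 0 h (left) and 3 h (right) for the 27 members, ordered by how far the 2 panels differ; lines are intervals from the deposited limits, open points are members below an FPKM of 1 in both libraries, and dashed lines mark 1 and -1. No point lies beyond a dashed line; Tnfsf8, Tnfsf15 and Tnfsf4 lie farthest left at 0 h and Lta farthest left at 3 h.

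The difference between the responses in KO and WT passed the rule for 3 of 27 members, against 2.47% of 11128 genes. Tnfsf8 (1.14, interval 0.81 to 1.48) and Tnfsf15 (1.02, interval 0.87 to 1.18) had the larger response in KO, and Ltb (-1.14, interval -1.699 to -0.58) the larger in WT. All 3 are ligands, and Tnfsf8 and Tnfsf15 are the neighbours on chromosome 4. For Tnfsf8 and Tnfsf15 the lower 0 h value in KO makes up most of this difference (-0.92 and -0.76 at 0 h, 0.23 and 0.26 at 3 h). None of the 3 passed with a pseudocount of 5. This comparison uses the same libraries as those above and adds no independent data.

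Genes of the signalling machinery around these receptors were followed in 6 lists. All 11 genes for NF-κB subunits and their inhibitors were measured, and 10 rose in each genotype, with median differences of 2.29 in WT and 2.54 in KO. Over all genes measured the medians were -0.54 and -0.64, and 7.56% rose and 23.2% fell in WT and 7.85% and 28% in KO, which is the background for each list below. Tnfaip3, whose product A20 restrains NF-κB signalling, rose, with 13.2 (WT) and 12.3 (KO) before LPS and 217 and 223 after it. Rel (2.48 and 2.91), Nfkb2 (2.53 and 2.69) and Nfkbia (2.64 and 2.54) also rose. Cyld, a deubiquitinase, was the 1 gene that did not pass, at -0.01 and 0.28.

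Of 25 receptor adaptors and proximal signalling genes, 6 rose and 2 fell in WT, and 7 rose and 2 fell in KO, and the medians were 0.11 and -0.10, above those of all genes. After rescaling 8 rose and 1 fell in WT and 10 rose and 1 fell in KO. Traf1, an adaptor of TNFR2, rose from 8.05 to 123 (WT) and from 9.14 to 136 (KO). Birc3 (2.44 and 2.36), Tank (2.06 and 2.21) and the kinase gene Map3k8 (2.18 and 2.18) also rose. The 2 that fell, named after their values were seen, were Fadd (-1.38 and -1.44), the adaptor of death receptors, and Tab1 (-1.47 and -1.71).

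Of 10 death effectors and inhibitors, 4 rose and none fell in each genotype, where 7.56% and 7.85% of all genes rose and 23.2% and 28% fell. Among them were Cflar, an inhibitor of caspase 8, which had 19.0 (WT) and 20.4 (KO) before LPS and 190 and 214 after it, with Daxx (2.93 and 3.02) and Mlkl (1.32 and 1.14). Of 7 measured genes for the cleavage of TNF ligands, 2 rose and 1 fell in each genotype, and after rescaling 4 rose in WT, 5 in KO and none fell. Rhbdf2, which carries the TNF sheddase ADAM17 to the surface, rose from 22.2 to 64.6 and from 23.2 to 75.2, while Sppl2b fell (-1.27 and -1.40). Timp3 rose in WT (1.11) and Furin in KO (1.06).

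Of 20 genes known to be induced by TNF, 16 rose and 1 fell in WT and 15 rose and 2 fell in KO. Many are also induced directly by LPS, and these data do not separate both routes. Cxcl10 rose by 9.85 and 9.68, Il6 by 9.22 and 9.70 and Ptgs2 by 8.85 and 7.92. In the comparison of genotypes Cxcl1 was higher in KO at 3 h, with 580 against 246, and Mmp9 was higher in KO at 0 h, with 13.7 against 6.06. The response of Mmp9 to LPS differed by -1.05 between the genotypes, a call lost after rescaling, while that of Cxcl1, at 0.91, passed only after it, at 1.04. Those that fell, named after their values were seen, were Plau in both genotypes (-2.58 and -2.94) and Mmp9 in KO (-1.50), which no longer passed after rescaling (-0.94). No gene of the other 5 lists passed in either comparison of genotypes. The response of Map3k5, of the adaptor list, differed by 0.99 between the genotypes and also passed only after rescaling, at 1.09. Of 9 superfamily genes outside the 37, 1 was measured in WT and 3 in KO. Relt, an orphan receptor, fell in both, with 11.9 (WT) and 10.2 (KO) before LPS and 0.67 and 0.76 after it. Tnfrsf11b passed as higher at 3 h in KO only after rescaling, at 1.04.

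**Figure D5:**
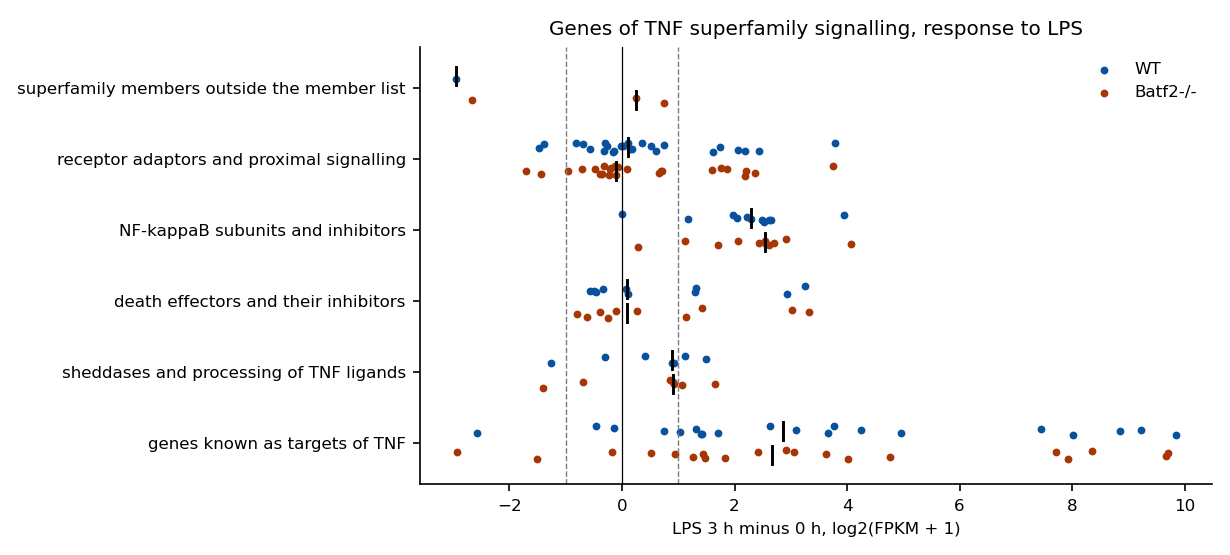
Difference between 3 h and 0 h of LPS on the log2(FPKM + 1) scale for the measured genes of the 6 lists, blue for WT and brown for KO; vertical ticks are medians and dashed lines mark 1 and -1. Genes of NF-κB subunits and inhibitors lie to the right of 1 in 10 of 11 cases, while adaptors and death effectors spread around 0 with a few genes beyond 1.

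Promoters of 29 of the 37 members were in RefSeq's table (GRCm38.p6), and 3 motifs were counted on both strands from 250 bases before the start to 50 after it. The κB consensus occurred in Ltb, Tnfrsf25, Tnfrsf8 and Tnfrsf9, which is 4 of 29 genes (13.8%) against 9.55% of all 27025 genes in the table. The AP-1 motif TGANTCA occurred in 6 (20.7%), namely Fas, Tnfrsf8, Tnfrsf9, Tnfsf13, Tnfsf13b and Tnfsf14, against 8.97%. The interferon response motif occurred in 3 (10.3%), namely Tnfrsf14, Tnfrsf1b and Tnfsf13b, against 3.99%. Carriers of TGANTCA included a member that rose (Fas) and members that fell (Tnfsf13 and Tnfsf14). A match is a run of letters and does not show binding, and a promoter without one may hold sites elsewhere or with other letters.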

How the data were processed

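RNA of 4 mouse macrophage cultures was sequenced, 1 library per group. Per the submitters' processing notes, the authors aligned reads with TopHat2, Bowtie and SAMtools to mm9 and computed FPKM with Cufflinks, with no versions stated. The deposited tables hold FPKM with lower and upper limits and a status per RefSeq entry. Their loci fit GRCm38 (95.7% of 33841 entries, and 51 of 52 member entries, inside the gene of that name), so coordinates are given as GRCm38. Libraries were joined by accession and locus, since row order differs. Entries were named from RefSeq (33437) or GENCODE (187) tables, and 217 kept their accession. FPKM was summed per symbol, and 270 genes with a status other than OK in any library were left out of comparisons using it.

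Differences are of log2(FPKM + 1), and the rule of size is given in the report. A difference between responses passed at an absolute value of at least 1 with an interval, combined from the limits, that leaves out 0. FPKM often lay outside its own limits, so printed intervals keep the limits' relative width around FPKM. Depth was estimated from long entries whose limits fit 1 or 2 reads, and covers counting error only. The script was checked on simulated data. Alternatives were other pseudocounts and FPKM minimums, rescaling, the highest single entry and no condition on limits. All members are named; of each list, genes past the rule between genotypes or responses and up to 4 with the largest response to LPS, except 1 gene that is not reported here. Members and lists were chosen with earlier results of these data known. Analyses used Python 3.11.15, pandas 2.3.3 and numpy 2.4.6.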

Additional observations from a re-analysis of the deposited data

Results flagged for a closer look

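For 3 ligands the difference between KO and WT had 1 sign at 0 h and the other at 3 h, and the change between the times passed the rule of size. The difference was not tested, since each group had 1 library. Ltb was higher in KO by 0.70 at 0 h and lower by 0.43 at 3 h (-0.43), a change of -1.14. Tnfsf15 was lower in KO by 0.76 at 0 h (-0.76) and higher by 0.26 at 3 h, a change of 1.02. Tnfsf8 stood at -0.92 at 0 h and at 0.23 at 3 h, a change of 1.14. The deposited limits of KO and WT did not overlap for these 3 genes at 0 h, and at 3 h they did not overlap for Tnfsf15 alone.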

How the results depend on the processing

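No paired analysis was possible because each group had 1 library, so that the groups share a single replicate number. No difference of a member changed sign while past the rule of size under the alternatives run. The count of members past the rule between KO and WT at 0 h went from 0 to 1 with a pseudocount of 0.1 (Tnfsf8 lower) and to 1 with the highest single entry of each gene (Tnfsf13, whose reads are listed under another entry in KO). With a pseudocount of 5, the count after LPS went from 20 to 12 in KO (8 higher and 4 lower) and from 17 to 13 in WT, with the lost calls named in the report, and the count for the difference between responses was 0. With a pseudocount of 0.1 the count in WT after LPS was 20, with Tnfrsf8, Tnfrsf22 and Tnfrsf23 gained. With the highest single entry Tnfsf13 lost its fall in WT and passed in the difference between responses. Under rescaling 6 calls after LPS were lost and 4 gained, and with an FPKM of at least 5 there were 6 lost and none gained. Without a filter on FPKM, or without the condition on limits, no call of a member changed. An estimated 20500000 to 31000000 reads per library leave some low values on few reads, such as 19 for Cd40 in KO at 0 h and 20 for Tnfrsf4 in WT at 0 h.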
